A study of Mus musculus with 12 samples.

Results

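Kdm2b conditional knockout (cKO) and wild-type (WT) regulatory T cells (Treg) were compared after stimulation in culture, in 4 of the 12 libraries of the series, 2 of each genotype. The 4 were taken as the columns of the in vitro expression table whose titles name stimulated cultured Treg, and a gene was tested where its mean over the 8 in vitro libraries was at least 1 FPKM (sequenced fragments corrected for the length of the gene and the size of the library), which left 10710 of 24421 genes. The cells were mouse Treg from spleen and lymph nodes, and the cultures are labelled as stimulated or unstimulated with no further detail. The other 8 libraries hold unstimulated cultures and Treg taken in vivo, 2 of each genotype. The unstimulated libraries entered the filter and the fit, which estimates the spread of each gene from all 8 in vitro libraries. The in vivo libraries are used only beside the stimulated values. The strain, the age and sex of the mice, the Cre line behind the knockout, the stimulus and its length are not given in the sources used here, and no label says that the 2 replicates of a group came from separate animals or cultures. What the p-values measure is thus the spread between the in vitro libraries alone, which may be technical.

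Treg are the CD4 T cells that hold immune responses in check, and their identity depends on the transcription factor Foxp3. On stimulation through the T cell receptor (TCR) they switch on early response genes, divide and raise surface receptors and suppressive cytokines such as interleukin 10. KDM2B is the subunit that brings the non-canonical Polycomb complex PRC1.1 to chromatin: its zinc finger domain binds CG dinucleotides that are not methylated, and the complex then ubiquitinates histone H2A, a mark that PRC2, the complex that methylates histone H3, can read. Promoters rich in CG are where PRC1.1 is chiefly known to bind.

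Kdm2b itself was at 74.5 and 71.7 FPKM in WT and 66.3 and 70.5 in cKO (fold change on the log2 scale -0.0948, SE 0.13, adjusted p = 0.778, and 0.0139 with quantile normalization). A conditional allele can lack part of a transcript, which a level over the whole gene does not show, so these values check no label.

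The label Treg was checked against T cell genes: 12 pan T cell genes summed to 1704 and 1814 FPKM in WT and 1821 and 1764 in cKO, and Foxp3 was at 238 FPKM or more in each stimulated library. Transcripts of other cell types stood apart by genotype. Summed over the B cell list the level was 98.5 and 83.1 FPKM in WT and 295.5 and 285.5 in cKO, and the MHC class II list came to 538 and 454 FPKM against 1359 and 1127. Haemoglobin genes, which mark red cells, made up 0.0812% and 0.548% of all FPKM in WT and 10.3% and 1.86% in cKO, so that replicate 1 of cKO held the most. WT replicate 2 listed 13273 genes at 0, against 9426 to 9857 in the other 3 stimulated libraries. Over the genes tested, on the log2 scale, the 2 WT libraries correlated at r = 0.9355 and the 2 cKO libraries at 0.9748. WT replicate 1 was closer to cKO replicates 1 and 2 (0.9445 and 0.9608) than to WT replicate 2. WT replicate 2 had 0.9123 and 0.9304 with the cKO libraries. FPKM summed to between 369720 and 402060 in the stimulated libraries and carry no read depth, so counting error is unknown. In bulk libraries fewer cells of a type and less RNA per cell cannot be told apart. Log2 fold changes (log2FC) below are of FPKM + 1, cKO over WT, which understates the change of low genes, and paired values are given as the 2 WT libraries against the 2 cKO libraries.

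**Figure D1:**
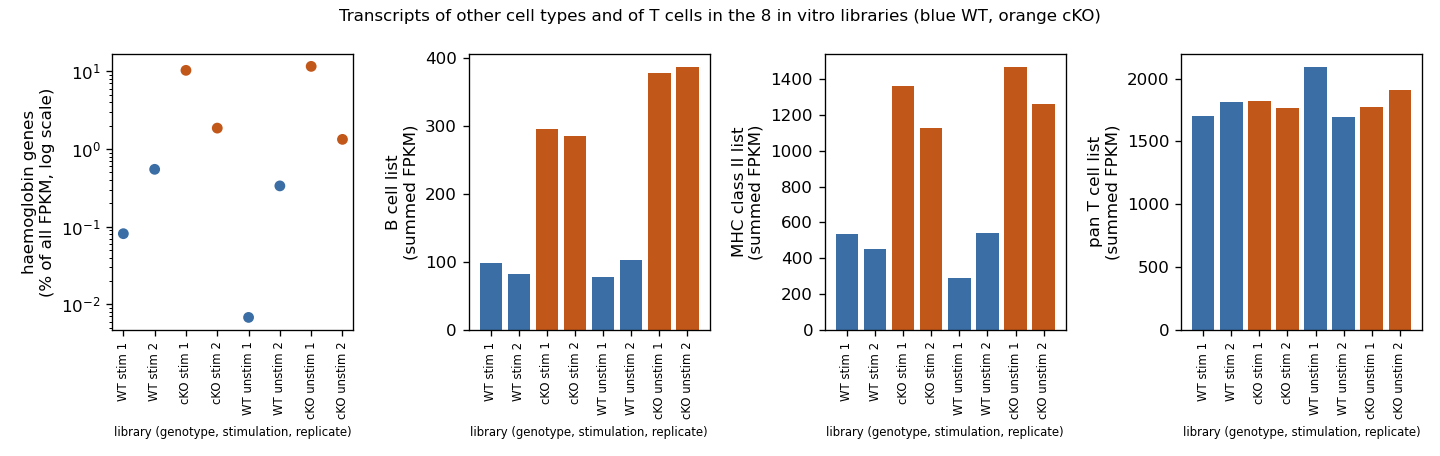
Haemoglobin genes as a percent of all FPKM (log axis), and the summed FPKM of the B cell, MHC class II and pan T cell lists, in each of the 8 in vitro libraries (blue WT, orange cKO, each point or bar 1 library). The 2 stimulated cKO libraries are above the 2 stimulated WT libraries in the first 3 panels, and the pan T cell sums lie between 1704 and 1821 in the 4 stimulated libraries.

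Scd1 and Cd79b were higher in the stimulated cKO libraries. Cd79b is on the B cell list, which is reported apart below, and the part of other cells in either gene was not tested. Both were also higher in unstimulated cKO (log2FC 2.49 for Scd1 and 2.47 for Cd79b). Scd1, a desaturase that makes monounsaturated fatty acids, was at 2.98 and 1.74 FPKM in WT and 17.1 and 18.6 in cKO (log2FC 2.51, SE 0.24, adjusted p = 0.0379). Cd79b, which encodes a chain through which the B cell receptor signals, was at 17.4 and 14.6 FPKM in WT and 60.96 and 62.3 in cKO (log2FC 1.89, SE 0.17, adjusted p = 0.0379). For both genes the 2 cKO libraries were close to each other and well above both WT libraries. No other gene was called by limma, where a call needs an adjusted p (Benjamini-Hochberg, over every gene tested) under 0.05; the calls were 0.0187% of genes tested, 2 higher and 0 lower in cKO. At an unadjusted p under 0.05 there were 464 higher (4.33%) and 1044 lower (9.75%). The count rests on single libraries: it was 0 without WT stimulated replicate 2, without either cKO stimulated library or without either unstimulated cKO library, 197 without WT stimulated replicate 1 and 8 without either unstimulated WT library. It was also 0 with a pseudocount of 0.1, with no filter on low genes, with only the 4 stimulated libraries in the fit, and with genes of other cell types taken out of the table. That removal covers the haemoglobin, erythroid and platelet, B cell and myeloid lists, so it takes out Cd79b itself.

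A looser adjusted p of 0.10 was passed by 51 genes (0.476% of those tested), 17 higher (0.159%) and 34 lower (0.317%) in cKO. The split was 21 and 17 with median-of-ratios scaling and 23 and 24 with quantile normalization. Of the 17 higher, 9 belong to the lists of B cell, myeloid and MHC class II genes, and of the 34 lower, none. This count, too, changed with the library left out: 695 genes passed without WT stimulated replicate 1 and 1 without WT stimulated replicate 2, 0 passed without cKO stimulated replicate 1 or 2 or unstimulated cKO replicate 2, and 11 without unstimulated cKO replicate 1. Below, "reached 0.10" is said of a gene that passed this looser threshold, and all other values are given as values that passed neither. Levels are also described by whether both cKO libraries lay on one side of both WT libraries, which held for 1986 of all genes tested upward (18.5%) and 3190 downward (29.8%), and together with an absolute log2FC of at least 1 for 281 (2.62%) and 186 (1.74%). With median-of-ratios scaling those shares were 25.1% and 22.2%, and with libraries rescaled to a common sum 15.1% and 33.0%.

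Among genes that define Treg, Foxp3 was lower after stimulation in both cKO libraries, with values of 529 and 696 FPKM in WT and 238 and 268 in cKO (log2FC -1.26, SE 0.17, adjusted p = 0.0769), and reached 0.10. Both cKO libraries stood below both WT libraries. Scaled to pan T cell genes the log2FC was -1.26, and it lay between -1.46 and -1.07 when 1 library was left out in turn. Foxp3 is annotated on the plus strand of chromosome X at 7579676 to 7595243 (RefSeq, GRCm38.p6). Ccdc22, which encodes a subunit of the CCC complex of endosomal sorting, runs on the opposite strand at 7593809 to 7605420, so that the 3′ ends overlap. Ccdc22 was at 32.02 and 32.3 FPKM in WT and 9.05 and 10.4 in cKO (log2FC -1.63, SE 0.19, adjusted p = 0.0659) and reached 0.10. Whether strand was used in the authors' quantification is not stated in the labels or files, and without it reads from the overlap could be assigned to either gene.

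Cxcr4, the receptor for the chemokine CXCL12 that keeps lymphocytes in bone marrow and lymphoid tissue, had the smallest p of the genes that were lower in cKO. Its level was 200.3 and 196 FPKM in WT and 56.8 and 51.1 in cKO (log2FC -1.86, SE 0.20, adjusted p = 0.0509), and it reached 0.10. The 2 libraries of each genotype were close, and both cKO libraries lay far below both WT libraries. The 250 bases before the RefSeq start of Cxcr4, of Foxp3 (which has 2 starts in the table) and of Ccdc22 are printed here because CG is the dinucleotide that KDM2B binds, Cxcr4 had the smallest p of the lower genes and Foxp3 and Ccdc22 are neighbours that were both lower. Capitals mark every CG, read on 1 strand (the other strand has the same sites), 5′ to 3′ along the gene, with coordinates of GRCm38.p6.
Cxcr4, chr1:128592300-128592549, minus strand: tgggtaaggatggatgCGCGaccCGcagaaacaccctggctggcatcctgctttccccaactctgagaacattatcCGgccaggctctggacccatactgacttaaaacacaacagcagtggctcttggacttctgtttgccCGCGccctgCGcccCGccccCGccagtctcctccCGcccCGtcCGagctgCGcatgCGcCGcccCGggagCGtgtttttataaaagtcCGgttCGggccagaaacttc
Foxp3, first start, chrX:7579426-7579675, plus strand: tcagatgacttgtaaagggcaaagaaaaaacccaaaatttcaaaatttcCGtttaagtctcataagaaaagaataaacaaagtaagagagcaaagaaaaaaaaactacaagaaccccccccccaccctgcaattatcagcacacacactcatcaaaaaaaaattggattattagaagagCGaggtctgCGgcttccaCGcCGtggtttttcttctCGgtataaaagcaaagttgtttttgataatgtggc
Foxp3, second start, chrX:7580233-7580482, plus strand: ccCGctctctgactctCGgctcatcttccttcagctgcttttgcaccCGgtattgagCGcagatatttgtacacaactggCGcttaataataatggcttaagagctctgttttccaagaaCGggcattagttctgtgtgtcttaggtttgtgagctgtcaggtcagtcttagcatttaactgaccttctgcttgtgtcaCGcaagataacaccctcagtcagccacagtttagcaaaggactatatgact
Ccdc22, chrX:7605421-7605670, minus strand: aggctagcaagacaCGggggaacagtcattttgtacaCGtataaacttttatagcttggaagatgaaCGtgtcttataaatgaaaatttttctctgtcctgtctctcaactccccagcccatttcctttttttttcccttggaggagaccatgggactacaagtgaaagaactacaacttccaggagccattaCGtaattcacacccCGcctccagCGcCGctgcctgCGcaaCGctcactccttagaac
The Cxcr4 window holds 19 CG, the Foxp3 windows 6 and 7, and the Ccdc22 window 9. Over the 8127 tested genes with a promoter in the RefSeq table, taking the first start of each, 99% held at least 1 CG and the median was 16 (quartiles 10 and 23). Of the 34 genes that reached 0.10 downward 23 had a promoter in the table, with a median of 17, and of the 17 upward 11, with a median of 9. These are descriptions of the sequence, and no binding was measured.

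The 30 tested genes of the Treg signature list had a median log2 fold change of -0.23, beside -0.05 over all genes tested. Without the WT second replicates the list had -0.085, close to the -0.081 over all genes. Both cKO libraries lay below both WT libraries for 12 of the 30 (40%) and above for 6 (20%), where all genes had 29.8% and 18.5%. With median-of-ratios scaling 9 were lower (30%) and 7 higher (23.3%), beside 22.2% and 25.1% of all genes. With a common sum 15 were lower (50%) and 6 higher (20%), beside 33.0% and 15.1%. None of the 30 was called, and 5 reached 0.10: Foxp3, Nrn1, Sytl2 and Nt5e lower and Socs2 higher. Nrn1, the membrane protein neuritin, was at 24.7 and 22.4 FPKM in WT and 6.11 and 7.04 in cKO (log2FC -1.70, adjusted p = 0.0864). Sytl2, which tethers secretory vesicles, was at 13.5 and 21.6 FPKM in WT and 3.995 and 4.11 in cKO (log2FC -1.84, adjusted p = 0.0912). Nt5e encodes CD73, the surface enzyme that makes adenosine, and was at 139.6 and 134 FPKM in WT and 82.9 and 79.2 in cKO (log2FC -0.75, adjusted p = 0.0912); it falls outside the rule for named genes and was picked after its values were seen. In all 3 the WT libraries stood above the cKO libraries without overlap.

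Other Treg hallmarks had smaller differences than Foxp3, or overlapped. Ctla4, the inhibitory receptor that strips CD80 and CD86 from other cells, was at 516 and 467 FPKM in WT and 359 and 332 in cKO (log2FC -0.51, adjusted p = 0.215). Tnfrsf18, the receptor GITR, had 463 and 393 against 301 and 334 FPKM (-0.43, adjusted p = 0.312), and the inhibitory receptor gene Tigit 168 and 188 against 143 and 121 (-0.43, adjusted p = 0.248). In these 3 the cKO libraries were lower without overlap. Il2ra, the high-affinity chain of the interleukin 2 receptor, overlapped between genotypes at 278 and 382 FPKM in WT and 408 and 364 in cKO (0.24, adjusted p = 0.597). Ikzf2, the transcription factor Helios, lay higher in cKO at 57.2 and 72.9 against 86.3 and 93.8 FPKM (0.47, adjusted p = 0.444). Batf, an AP-1 factor of effector Treg, had 37.8 and 42.1 against 27.6 and 20.8 FPKM (-0.71, adjusted p = 0.1895).

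**Figure D2:**
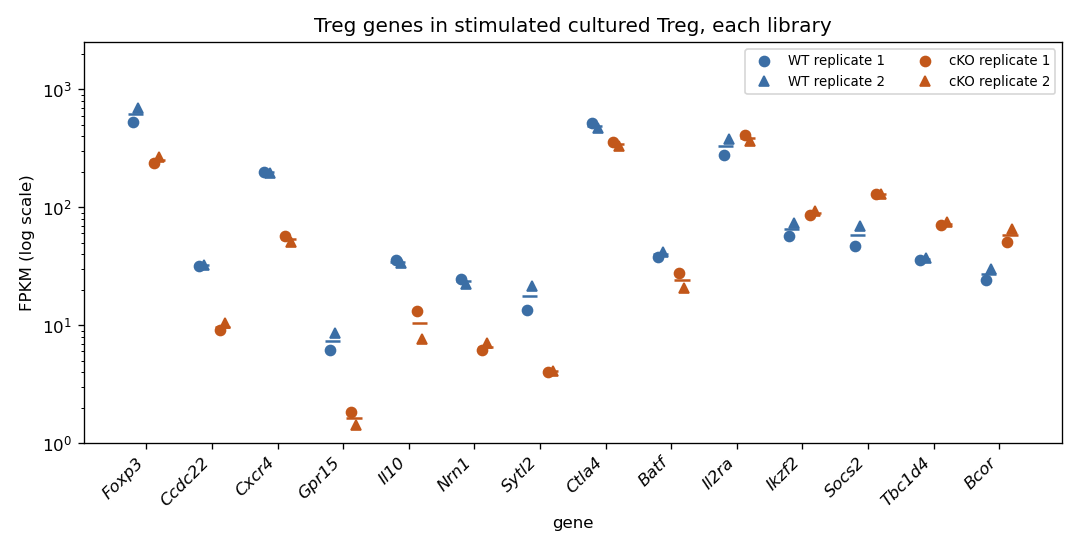
FPKM (log axis) of 14 Treg and Polycomb genes in the 4 stimulated libraries, with a circle for replicate 1, a triangle for replicate 2 and a line at the mean of each genotype (blue WT, orange cKO). Foxp3, Ccdc22, Cxcr4, Gpr15, Il10, Nrn1 and Sytl2 lie lower in both cKO libraries, Socs2, Tbc1d4 and Bcor higher, and Il2ra overlaps.

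Il10, the suppressive cytokine, was lower in both stimulated cKO libraries, at 35.4 and 33.4 FPKM in WT and 13.1 and 7.59 in cKO (log2FC -1.68, SE 0.25, adjusted p = 0.0864), and reached 0.10. It was the only one of 32 tested effector and suppressor genes to do so. The list's median was -0.08, with 7 lower without overlap (21.9%) and 5 higher (15.6%), beside 29.8% and 18.5% of all genes. Tgfb1, the precursor of the cytokine TGF-beta, had 222 and 256 against 211 and 194 FPKM (-0.23, adjusted p = 0.486). Lag3 had 24.3 and 20.9 against 21.01 and 18.9 (-0.17) and the granzyme gene Gzmb 16.4 and 30.9 against 19.8 and 12.7 (-0.48). The genotypes overlapped in both Lag3 and Gzmb. Lgals1, the lectin galectin 1, lay higher in cKO at 63.1 and 43.8 against 139 and 104 FPKM (1.18, adjusted p = 0.157). Among resting Treg genes (18 tested, median 0.04), Bcl2, which blocks apoptosis, had 34.4 and 30.95 against 52.6 and 55.6 FPKM (0.71, adjusted p = 0.137) and Klf2, a factor of quiescent and recirculating T cells, 171 and 216 against 124 and 116 (-0.68). The 26 Foxp3 partner factors had a median of -0.03, 7 lower (26.9%) and 3 higher (11.5%) without overlap, beside 29.8% and 18.5% of all genes.

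Of 29 tested chemokine receptor and homing genes, Cxcr4 and Gpr15 reached 0.10. Gpr15, a receptor that guides Treg to the large intestine, was at 6.19 and 8.55 FPKM in WT and 1.85 and 1.44 in cKO (log2FC -1.65, adjusted p = 0.0912), with no overlap. Itgb1, the beta 1 integrin chain, had 52.3 and 51.2 against 29.6 and 27.7 FPKM (-0.83, adjusted p = 0.167). The list as a whole had a median of 0.00, with 7 lower and 6 higher, close to the share over all genes.

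Of 23 TNF family ligands and receptors, 13 (56.5%, beside 29.8% of all genes) were lower in cKO without overlap and 2 higher, with a median of -0.40. One reached 0.10, Tnfrsf26, a receptor of the family, at 9.32 and 5.40 FPKM in WT and listed at 0 and 0.0191 in cKO, for which no fold is given. Fas, the death receptor, had 44.4 and 78.3 against 21.7 and 27.7 FPKM (-1.23, adjusted p = 0.166), and Tnfrsf25, the receptor DR3 that expands Treg, 39.8 and 40.8 against 26.9 and 19.2 (-0.80, adjusted p = 0.152). In unstimulated cultures 13 of these genes were lower and 2 higher, beside 16.6% and 17.8% of all genes.

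Interleukin receptors with their JAK, STAT and SOCS partners had 22 of 36 genes lower without overlap (61.1%) and 3 higher (8.3%). All genes had 29.8% and 18.5%, and the list's median was -0.24. The lower count was 17 with median-of-ratios scaling (47.2%, beside 22.2% of all genes). Il10ra, a chain of the interleukin 10 receptor, was at 31.6 and 49.1 FPKM in WT and 14.8 and 18.7 in cKO (log2FC -1.20, adjusted p = 0.139). Cish, a feedback inhibitor of interleukin 2 signalling, had 421 and 456 against 260.3 and 253 FPKM (-0.77, adjusted p = 0.171), Stat5a, a transcription factor of that pathway, 201 and 204 against 108 and 145 (-0.69, adjusted p = 0.166), and the kinase gene Pim2 23.8 and 21.8 against 13.8 and 13.6 (-0.69). Socs2, another feedback inhibitor of cytokine receptors, was higher in cKO and reached 0.10, at 46.9 and 69.7 FPKM in WT and 129 and 130.0 in cKO (log2FC 1.16, SE 0.20, adjusted p = 0.0957). Socs2 is counted on the Treg signature list. None of the 36 was called and none reached 0.10.

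The early TCR response list had a median of -0.44 over 31 genes. Of these 18 were lower without overlap (58.1%) and 5 higher (16.1%), beside 29.8% and 18.5% of all genes. The lower count was also 18 under each of the 5 rescalings by 1 factor per library (it was not counted under quantile normalization), and 14 had an unadjusted p under 0.05 downward (9.75% of all genes), but none reached 0.10. Junb, an AP-1 factor, was at 646 and 585 FPKM in WT and 367 and 326 in cKO (log2FC -0.83, SE 0.16, adjusted p = 0.1201). Tnfaip3, which encodes the NF-kappa-B inhibitor A20, was at 449.7 and 422 FPKM in WT and 219 and 260.0 in cKO (log2FC -0.87, adjusted p = 0.123), and Rgs2, a brake on G protein signalling, at 68.6 and 52.8 FPKM in WT and 35.3 and 31.4 in cKO (log2FC -0.83, adjusted p = 0.1201). The WT sums of the list overlapped between conditions, at 4636.7 and 4912.5 FPKM stimulated against 4121.9 and 5052.0 unstimulated. Unstimulated WT held Junb at 659 and 708 FPKM, Tnfaip3 at 493 and 609 and Rgs2 at 229 and 193, each above stimulated WT. In unstimulated cultures the same list had a median of -0.11, with 7 lower and 3 higher, beside 16.6% and 17.8% of all genes. The difference between the conditions was tested gene by gene only, with 0 called. The TCR complex and its proximal signalling genes (32 tested) had a median of -0.01. Of them 7 were lower (21.9%) and 6 higher (18.75%), beside 29.8% and 18.5% of all genes. Lat, the scaffold of the proximal signal, had 152 and 131 against 90.8 and 87.9 FPKM (-0.65, adjusted p = 0.211).

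**Figure D3:**
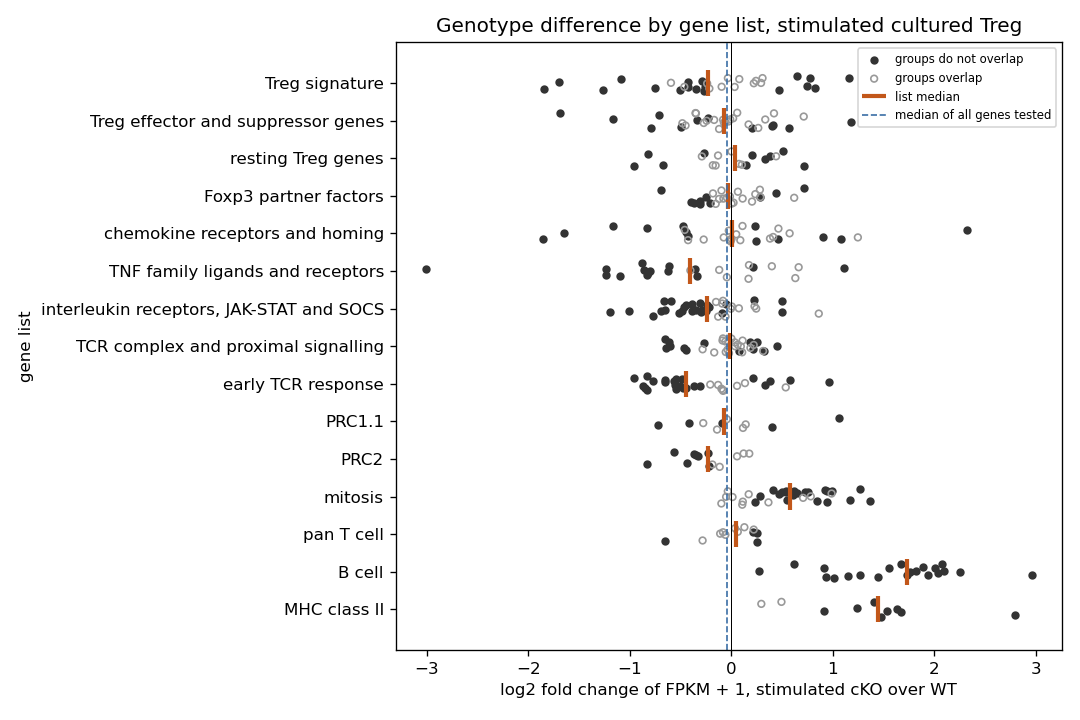
Log2 fold change of FPKM + 1, stimulated cKO over WT, for each tested gene of 15 lists (1 point a gene, shifted up or down at random for sight; filled where the genotypes do not overlap, open where they do), with the list median in orange and the median of all genes tested as a dashed line. The median is -0.44 for the early TCR response list and 1.73 for the B cell list.

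Subunits of PRC1.1 showed no common direction. Bcor, the scaffold that holds the complex together, lay higher in cKO at 24.3 and 29.8 FPKM in WT and 50.4 and 64.9 in cKO (log2FC 1.06, SE 0.23, adjusted p = 0.139), and its relative Bcorl1 at 2.55 and 3.34 against 3.78 and 4.64 FPKM (0.40). Rybp and Yaf2, alternative subunits that stimulate the ubiquitin ligase, lay lower, Rybp at 20.3 and 34.3 against 15.2 and 16.04 FPKM (-0.72) and Yaf2 at 15.5 and 15.8 against 11.8 and 11.1 (-0.42). The 10 genes had a median of -0.07, with 3 lower (30%) and 2 higher (20%) without overlap, beside 29.8% and 18.5% of all genes. PRC2 and its accessory genes had 8 of 13 lower without overlap (61.5%, beside 29.8% of all genes) and 0 higher (beside 18.5%), with a median of -0.22. Under the 5 rescalings by 1 factor per library the lower count stayed at 8, while the higher count was 0 to 3. With median-of-ratios scaling the 3 higher were 23.1%, beside 25.1% of all genes. In unstimulated cultures 2 were lower and 2 higher, beside 16.6% and 17.8% of all genes; the difference between the conditions was tested gene by gene only, with 0 called. Phf1, an accessory subunit that reads histone H3, had 43.6 and 31.6 against 22.2 and 18.8 FPKM (-0.83, adjusted p = 0.157), Eed, the core subunit that binds the methylated histone, 33.3 and 34.3 against 20.5 and 24.9 (-0.56, adjusted p = 0.202), and the accessory gene Jarid2 42.2 and 40.1 against 28.8 and 31.6 (-0.44). None of the subunits of either complex reached 0.10.

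Further genes lower in cKO that reached 0.10 came from varied functions. Med10, a subunit of the Mediator complex that links transcription factors to RNA polymerase II, was at 35.1 and 41.4 FPKM in WT and 15.9 and 16.6 in cKO (log2FC -1.18, adjusted p = 0.06601). Sntb1, a scaffold protein of the membrane cytoskeleton, was at 12.8 and 13.3 FPKM in WT and 3.85 and 4.74 in cKO (log2FC -1.41, adjusted p = 0.0769), and Gng5, a gamma subunit of G proteins, at 98.2 and 106 FPKM in WT and 52.02 and 46.6 in cKO (log2FC -1.04, adjusted p = 0.0769). In each of these the replicates of a genotype lay closer together than the genotypes. Snhg5, which hosts small nucleolar RNAs, had 33.6 and 33.8 against 14.8 and 12.3 FPKM (-1.26) and Tcp11l2 48.6 and 48.8 against 20.1 and 23.1 (-1.14). Snord55, a small nucleolar RNA, had 15.8 and 23.9 against 3.29 and 4.61 FPKM (-2.06, adjusted p = 0.0769); RNA so short is poorly captured by selection for poly(A). Rgs16, Ndufs7 and Ifrd1 also reached 0.10 and are named after their values were seen: Rgs16, a brake on G protein signalling, had 77.9 and 81.3 against 23.4 and 25.5 FPKM, Ndufs7, a subunit of respiratory complex I, 38.3 and 37.2 against 16.99 and 17.7, and the transcriptional regulator Ifrd1 130.0 and 177 against 70.6 and 69.4.

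Of the 17 higher genes that reached 0.10, 8 were on none of the lists of other cell types: Scd1, Tbc1d4, Prickle1, Serp1, Socs2, Irx2, H2-Eb2 and Nefl. Tbc1d4, a regulator of glucose transporter traffic, was at 35.6 and 37.1 FPKM in WT and 70.3 and 75.3 in cKO (log2FC 0.98, SE 0.13, adjusted p = 0.0769). Serp1, a stress protein of the endoplasmic reticulum, was at 105 and 102 FPKM in WT and 174 and 172 in cKO (log2FC 0.73, adjusted p = 0.0912). Prickle1, a planar polarity protein, was at 8.795 and 6.205 FPKM in WT and 21.6 and 22.3 in cKO (log2FC 1.45, adjusted p = 0.0912). H2-Eb2, Irx2 and Nefl were low, and were named after their values were seen. H2-Eb2, a class II gene outside the list, had 0.738 and 0 against 3.96 and 4.48 FPKM. Irx2, a homeobox factor, stood at 0 in each WT library and at 3.15 and 3.79 in cKO. Nefl, a neurofilament subunit, had 0.177 and 0 against 2.73 and 2.45. Got1, the cytosolic aspartate aminotransferase, missed 0.10 at 131 and 87.8 FPKM in WT and 239.5 and 235 in cKO (log2FC 1.14, adjusted p = 0.102), as did Rnf157, a ubiquitin ligase gene, at 32.98 and 27.8 FPKM in WT and 64.2 and 58.9 in cKO (log2FC 1.00, adjusted p = 0.102).

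Among 32 tested mitosis genes, 21 were higher without overlap (65.6%, beside 18.5% of all genes) and 0 lower, and the median was 0.58. The count of higher genes was 19 to 23 under the 5 rescalings by 1 factor per library, and the median was 0.30 without WT stimulated replicate 2. Mki67, the proliferation antigen, was at 8.29 and 4.49 FPKM in WT and 17.0 and 17.9 in cKO (log2FC 1.37, adjusted p = 0.193), and Smc2, a condensin subunit, at 7.23 and 5.18 FPKM in WT and 12.4 and 11.2 in cKO (log2FC 0.84, adjusted p = 0.247). No member reached 0.10, and 6 had an unadjusted p under 0.05. The difference was also there without stimulation, with a median of 0.63, 10 higher and 0 lower, beside 17.8% and 16.6% of all genes. The DNA replication list had 10 of 38 higher (26.3%) and 5 lower (13.2%), beside 18.5% and 29.8% of all genes. Its median was 0.15, or -0.01 without the WT second replicates. The B cell, erythroid and haemoglobin transcripts were higher in the same cKO libraries; their part in the mitosis values was not tested.

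Metabolic and stress lists were mixed. In the cholesterol and fatty acid synthesis list 14 of 34 genes were higher without overlap (41.2%) and 5 lower (14.7%). All genes had 18.5% and 29.8%, and Scd1 was the only one of the list called. Scd2, a related desaturase, had 20.02 and 14.9 against 26.9 and 24.9 FPKM (0.56, adjusted p = 0.263), and Cyp51, a sterol demethylase, 16.1 and 15.2 against 20.6 and 23.1 (0.46). The glycolysis list had 4 higher and 4 lower of 24 (16.7% each), beside 18.5% and 29.8% of all genes. Oxidative phosphorylation had 3 higher and 8 lower of 40 (7.5% and 20%). Among 27 heat shock and chaperone genes 10 were lower (37.0%, beside 29.8% of all genes) and 5 higher (18.5%, the share over all genes). Hsf1, the master factor of the heat shock response, was at 33.9 and 34.9 FPKM in WT and 18.4 and 19.4 in cKO (log2FC -0.83, adjusted p = 0.115), and Atf4, the factor of the integrated stress response, at 202 and 202 FPKM in WT and 136 and 124 in cKO (log2FC -0.63, adjusted p = 0.139). Bax, which promotes apoptosis, had 60.8 and 45.5 against 27.4 and 22.2 FPKM (-1.06, adjusted p = 0.148). Interferon-stimulated genes had 11 of 31 higher (35.5%, beside 18.5% of all genes) and 4 lower (median 0.24, or 0.05 without the first replicates of cKO), with Ifit1 at 1.97 and 0.947 against 9.64 and 4.22 FPKM and Usp18 at 6.38 and 3.71 against 14.4 and 11.5. Ribosomal protein genes had 23 of 82 higher (28.05%) and 5 lower (6.1%), beside 18.5% and 29.8% of all genes. Their median of 0.09 became 0.00 with quantile normalization and -0.02 without cKO stimulated replicate 2.

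Genes of other cell types are reported apart, since they need not come from Treg. Only members that passed the filter on the mean are counted: 21 of 22 B cell genes in the table, 21 of 33 myeloid, 7 of 12 haemoglobin, and 12 of 25 erythroid and platelet genes. A member low in WT could pass through its cKO libraries alone, so the filter fixes these counts in part, and they are given as descriptions. Of the 21 B cell genes counted, 21 were higher in both cKO libraries than in both WT libraries (100%, beside 18.5% of all genes), with a median of 1.73; 1 was called, Cd79b, and 7 reached 0.10. Pax5, the factor that fixes B cell identity, was at 1.38 and 0.772 FPKM in WT and 13.8 and 16.2 in cKO (log2FC 2.96, adjusted p = 0.0769), Ms4a1, which encodes CD20, at 2.69 and 2.18 FPKM in WT and 12.8 and 14.6 in cKO (log2FC 2.097, adjusted p = 0.0769), and Syk, the kinase of the B cell receptor, at 2.598 ± 0.149 FPKM in WT and 11.7 ± 0.457 in cKO (SD, n = 2 each; log2FC 1.82, adjusted p = 0.06601 by limma). Class II genes had 8 of 10 higher, with a median of 1.44; Cd74, the invariant chain, was at 338 and 302 FPKM in WT and 831 and 682 in cKO (log2FC 1.23, adjusted p = 0.139) and H2-Ab1 at 57.8 and 56.5 FPKM in WT and 166 and 140.3 in cKO (log2FC 1.40, adjusted p = 0.0912). Myeloid genes had 10 of 21 higher and 1 lower (median 0.65, but 0.07 without the first replicates of cKO). Lyz2, the lysozyme of macrophages and neutrophils, was at 4.66 and 1.79 FPKM in WT and 46.7 and 33.4 in cKO (log2FC 3.35, adjusted p = 0.0769).

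Red cell transcripts differed most in FPKM. Haemoglobin genes, whose reads near-identical copies can share, had 5 of 7 tested members higher (71.4%) and 0 lower, beside 18.5% and 29.8% of all genes. Hba-a2 was at 27.4 and 26.3 FPKM in WT and 23023 and 3732 in cKO, so that the 2 cKO libraries also differed from each other. Of the 12 tested erythroid and platelet genes 11 were higher (91.7%, beside 18.5% of all genes). Their median was 1.69, or 0.97 without the first replicates of cKO. Alas2, the first enzyme of haem synthesis in red cells, had 0.8999 and 13.8 against 385 and 46.8 FPKM. The plasma cell list (6 tested) had 0 higher and 0 lower without overlap. The CD8 T and NK list (7 tested) had 1 higher (14.3%) and 0 lower, beside 18.5% and 29.8% of all genes. How much of the difference in Scd1, H2-Eb2 or the mitosis genes other cell types carry was not tested.

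The unstimulated cultures show how the stimulated differences sit beside those without stimulation. These libraries entered the estimate of spread, so the values side by side are a description. All 17 genes that reached 0.10 upward were also higher without overlap in unstimulated cKO (17.8% of all genes were). Of the 34 downward, 30 had the same sign and 26 were lower without overlap (16.6% of all genes were). Foxp3 had -1.31 unstimulated (194 and 189 against 71.5 and 82.6 FPKM), Cxcr4 -1.35 (298 and 439.6 against 130.2 and 154), Il10 -2.40 (43.5 and 55.4 against 8.93 and 8.14) and Scd1 2.49 (1.76 and 2.18 against 16.2 and 15.1). Ccdc22 had -0.47 (14.3 and 18.9 against 10.6 and 12.6 FPKM), Med10 -0.31 (42.5 and 40.99 against 34.4 and 32.7) and Snord55 -0.13 (16.9 and 16.7 against 12.1 and 19.2). For Ccdc22 the WT libraries stood at 32.0 and 32.3 FPKM after stimulation and at 14.3 and 18.9 without it, while all 4 cKO libraries lay between 9.05 and 12.6. The interaction of genotype and stimulation was called by limma for 0 genes, with an unadjusted p under 0.05 for 380 (3.55%); Ccdc22 had an interaction of -1.16 on the log2 scale (SE 0.27, adjusted p = 0.999).

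**Figure D4:**
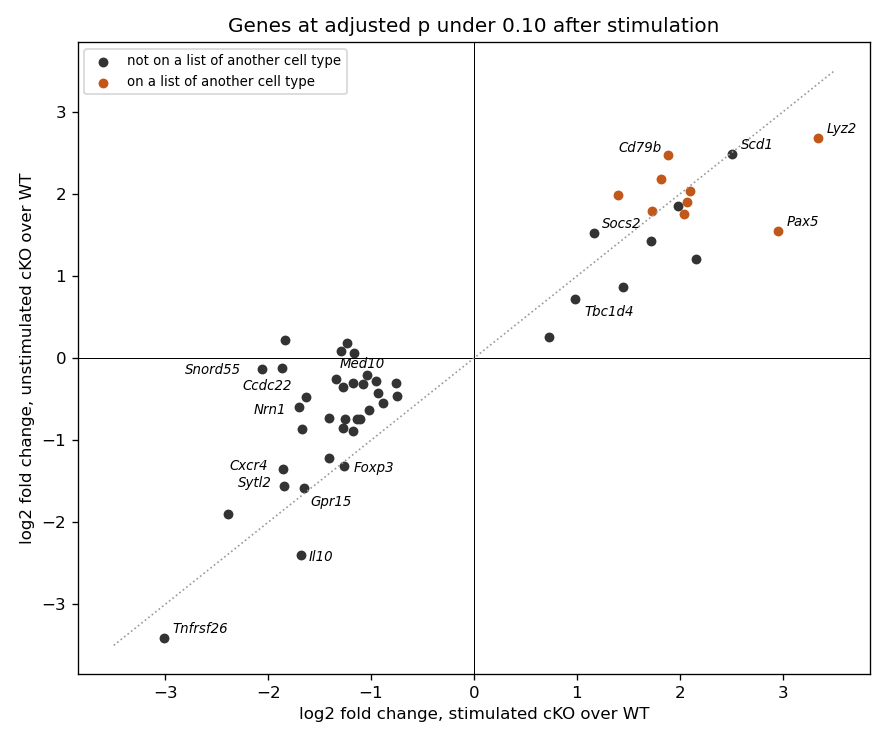
Log2 fold change of cKO over WT in stimulated (x axis) and unstimulated cultures (y axis) for the 51 genes that reached an adjusted p of 0.10 after stimulation, with genes on a list of another cell type in orange and the diagonal dotted. Foxp3 (-1.26 and -1.31) and Scd1 (2.51 and 2.49) lie by the diagonal, while Ccdc22, Med10 and Snord55 are at -0.47, -0.31 and -0.13 on the y axis. Tnfrsf26 and Irx2, listed at 0 in libraries of a group, are drawn at fitted values that depend on the pseudocount.

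Treg taken in vivo were quantified in a table of their own, and no level is compared across the tables. Of the 34 downward genes 28 were measured there, 14 lower in both cKO libraries and 2 higher without overlap, where 25.7% of all genes were lower and 21.9% higher. Cxcr4 had 381 and 382 against 186 and 273 FPKM in WT against cKO, Il10 69.5 and 80.6 against 42.8 and 44.2, Nrn1 17.1 and 15.02 against 4.76 and 3.82, Gpr15 5.11 and 6.65 against 2.42 and 2.61 and Sntb1 17.2 and 15.3 against 10.1 and 5.86, all lower in cKO. Foxp3 was at 107 and 106 against 114 and 117 FPKM and Ccdc22 at 9.81 and 10.4 against 10.4 and 10.3, with no lower level in cKO. Tnfrsf26, listed at 0 in both unstimulated cKO libraries as well, overlapped in vivo at 12.6 and 15.5 against 8.33 and 14.15 FPKM. Of the 8 upward genes on no list of another cell type, 5 were higher in vivo and 2 lower; Socs2 had 21.5 and 21.8 against 40.9 and 59.5 FPKM, Prickle1 9.83 and 8.74 against 16.6 and 21.96 and Serp1 129 and 131 against 157 and 146. Bcor had 21.6 and 17.03 against 44.9 and 54.2 FPKM and Rnf157 7.57 and 8.13 against 30.9 and 26.2, both higher in cKO. Scd1 lay the other way, at 7.09 and 9.35 against 1.99 and 1.79 FPKM, and so did Cd79b, at 10.6 and 11.8 against 4.19 and 6.86. All 17 upward genes were measured in vivo, and 11 of them were lower there in both cKO libraries.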

How the data were processed

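Polyadenylated RNA was sequenced from 12 mouse Treg samples, 6 groups of 2. The authors deposited FPKM per gene, in 1 table for the 8 in vitro libraries and another for the 4 in vivo libraries. HISAT2 2.2.1 and StringTie 2.1.1, with the builds mm10 and hg19 in no stated role, are named per the submitters' processing notes; depth, annotation and strandedness are not given in the sources used here. Both tables hold 4 further per-sample columns that belong to no sample of the series and were not used. FPKM are not counts, so limma 3.58.1 (R 4.3.3; lmFit, eBayes with an intensity trend, two-sided, Benjamini-Hochberg adjustment) was run on log2(FPKM + 1) of the 8 in vitro libraries in 4 groups, keeping genes whose mean was 1 FPKM or more. Genes listed at 0 in a whole group get no fold, since ribosomal protein genes were also listed at 0 (1 to 4 of 85 in each in vitro library).

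The members, the 37 gene lists and the threshold of 0.10 were chosen with earlier results of these data known. The rule for named genes took Kdm2b, called genes, the 12 smallest p in each direction among genes with no overlap, 5 FPKM or more in the higher group and no membership of another cell type's list, 3 genes a list (4 for other cell types), fixed Treg genes and PRC1.1 subunits; the text uses part of it. Of the 978 list entries 972 were in the table. On simulated data for this comparison (10710 genes) limma called 53.7%, 97.0% and 100.0% of genes changed 2, 4 and 8-fold, with 5.65% of calls false. These figures describe the simulated data alone. Calls on the real libraries changed with the library left out, so the simulation gives no power or error rate for those libraries. Alternatives were a pseudocount of 0.1, other filters, scalings and variance models, the replicate number as a block, and leaving out libraries. Promoter sequences and coordinates come from RefSeq (GRCm38.p6).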

Additional observations from a re-analysis of the deposited data

Results flagged for a closer look

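Several genes lay on opposite sides in stimulated culture and in vivo: both cKO libraries were above both WT libraries in one setting and below them in the other. Lying apart was frequent over all genes, with 18.5% higher and 29.8% lower in stimulated culture and 21.9% and 25.7% in vivo. The share of all genes on opposite sides was not counted, so the genes below are a description. These differences between settings were not tested, since the tables were normalized separately. Scd1 had a log2 fold change of 2.51 in stimulated culture, with 7.09 and 9.35 against 1.99 and 1.79 FPKM in vivo (WT against cKO). Foxp3 had -1.26, with 107 and 106 against 114 and 117 FPKM in vivo. Stat5a had -0.69, with 163 and 164 against 267 and 184 FPKM in vivo. Tnfrsf18 had -0.43, with 212 and 226 against 281 and 244 FPKM, and Bcl2 had 0.71, with 33.4 and 33.5 against 29.2 and 30.3 FPKM. Kdm2b had -0.0948, with 113 and 110.4 against 146 and 125 FPKM. The rest are genes of B cells, myeloid cells and MHC class II, higher in stimulated cKO culture and lower in cKO in vivo. Cd79b had 1.89 in stimulated culture, Ms4a1 2.097 (3.89 and 5.33 against 1.35 and 1.75 FPKM in vivo), Pax5 2.96 (3.25 and 4.39 against 0.580 and 0.990 FPKM), Syk 1.82 (6.98 and 7.50 against 2.84 and 4.44 FPKM), Lyz2 3.35 (25.9 and 19.7 against 12.3 and 17.7 FPKM), Cd74 1.23 (325 and 379 against 150.4 and 204 FPKM) and H2-Ab1 1.40 (84.5 and 92.2 against 35.5 and 54.1 FPKM).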

How the results depend on the processing

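Counts of called genes depended on the processing. At an adjusted p of 0.05 the 2 calls became 0 with a pseudocount of 0.1, with no filter, with only the 4 stimulated samples, with genes of other cell types removed and without both cKO first replicates, 4 with quantile normalization, 5 with no intensity trend, 7 without both WT second replicates and 51 at the looser adjusted p of 0.10. Leaving out 1 library in turn gave 0 to 197. The 51 genes at 0.10, a count added with the data known, became 15 with a pseudocount of 0.1, 0 with no filter, 22 with genes of other cell types removed, 33 scaled to pan T cell genes, 11 with no intensity trend, 15 with only the 4 stimulated samples, 0 without both cKO first replicates, and 0 to 695 when 1 library was left out. Fits without 1 library assume that the lone sample varies like the other groups. Each of the 51 genes that a fit still tested kept its sign there: 43 with a floor of 5 FPKM and with genes of other cell types removed, 50 without a cKO stimulated library or both cKO first replicates (Irx2 fell below the filter), and 51 in the others. Leaving out a library could not change a sign, since the genotypes overlapped in none of the 51. Another filter, variance model or block leaves the fold change as it was. The kept signs are thus a description and no sign of stability. Interaction calls were 0, except 5 without both WT second replicates and 0 to 3 when 1 library was left out. Kdm2b turned from -0.0948 to 0.0139 with quantile normalization. The cause of these changes was not tested.

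The labels tie no replicate number to an animal or day. With the replicate number as a block, 0 genes were called at 0.05, 123 at 0.10 and 0 for the interaction, and the deviations of same-numbered stimulated WT and cKO libraries had r = 0.04 across genes. Within a genotype, deviations of same-numbered stimulated and unstimulated libraries had r = 0.24 (WT) and 0.42 (cKO), and the fit without the block treats them as independent.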

Other observations

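Cytokine genes of helper T cells (15 tested) were lower without overlap in 5 and higher in 3 in the stimulated cKO libraries, none past 0.10. These are 33.3% and 20%, beside 29.8% and 18.5% of all genes. Osm, which encodes oncostatin M, was at 11.4 and 14.8 FPKM in WT and 8.52 and 5.86 in cKO (log2FC -0.79, adjusted p = 0.2295 by limma), and Csf2, which encodes the growth factor GM-CSF, at 22.05 and 18.7 FPKM in WT and 12.7 and 11.5 in cKO (-0.70, adjusted p = 0.238). Csf2 differed the other way without stimulation, at 1.15 and 1.64 against 2.24 and 1.86 FPKM, with an interaction of -1.05 (adjusted p = 0.999). Cd200r1, an inhibitory receptor, was at 15.1 and 20.6 FPKM in WT and 6.502 and 5.08 in cKO (-1.47, adjusted p = 0.1201).

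Genes higher in cKO in all 3 settings included Slc43a1, an amino acid transporter, at 1.205 and 0.595 FPKM in WT and 6.33 and 4.12 in cKO after stimulation (1.71, adjusted p = 0.115), 1.52 and 0.992 against 9.36 and 6.87 FPKM without it and 1.38 and 1.52 against 6.77 and 8.76 in vivo. Camk2n1, an inhibitor of the kinase CaMKII, was at 6.499 and 9.33 FPKM in WT and 18.1 and 16.5 in cKO after stimulation (1.05, adjusted p = 0.1201), 11.1 and 12.6 against 28.2 and 30.8 without it and 2.02 and 2.29 against 21.8 and 22.4 in vivo. In neither gene did the genotypes overlap in any of the 3 settings.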
